A study of Mus musculus with 6 samples.

Results

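The 35 genes described here encode the enzymes, transporters and regulators of glycolysis and a set of genes known to respond to low oxygen, and they were taken from the 50686 genes counted by RNASeq in mouse neural stem cells (NSC). They were chosen by name, and each symbol was matched to its identifier in the GENCODE vM21 annotation. All 35 had enough reads to be tested. The study set mouse glioblastoma-initiating cells (mGIC) against NSC with basal or raised Bmi1, a Polycomb protein, to find genes that the tumour cells silence through Bmi1 and the repressive histone mark H3K27me3. Here the NSC were compared with the NSC Bmi1Over instead, and the genes below were read as a record of the state of each culture.

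RNASeq covered 2 biologically independent NSC cultures and 2 NSC Bmi1Over cultures, and H3K27me3 ChIPSeq gave 1 list of peaks for each group. The NSC came from the subventricular zone of wild-type E16.5 embryos. The NSC Bmi1Over came from STOPFloxBmi1;NestinCre embryos of the same age, in which Cre driven by Nestin sequences removes a stop cassette ahead of Bmi1, so that the transgene is switched on in neural progenitors and their progeny. Both kinds of culture were grown with EGF and FGF, either as floating neurospheres or as an adherent layer, and which form gave these libraries is not given in the sources used here. Neither are the passage, the density at harvest and the oxygen level of each culture, nor whether embryos were pooled. The study does give a plating density for each form. The mGIC were not analysed here.

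Glycolysis splits glucose into pyruvate, which is either burned in mitochondria or reduced to lactate and exported. In low oxygen, the transcription factors HIF-1α (Hif1a) and HIF-2α (Epas1) escape hydroxylation by the prolyl hydroxylases (Egln1 and Egln3), accumulate, and switch on glucose uptake, glycolytic enzymes, lactate export and angiogenic factors by binding short DNA elements with the core ACGTG or GCGTG. This control acts on the HIF proteins and only in part on their mRNAs. Neural stem and progenitor cells are known to be strongly glycolytic, and dense cultures or the inside of neurospheres can become short of oxygen.

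As a view of the regulatory DNA of the genes that varied most, the 250 bases ahead of the first-listed RefSeq start (GRCm38.p6) are shown 5′ to 3′ for Slc16a3, Pdk1, Bnip3 and Egln3, the members with a RefSeq promoter entry that ranged most between libraries on the log2(CPM + 0.5) scale. Ldha and Slc16a1 are shown beside them as members that ranged 1.95-fold and 1.58-fold in CPM. Capitals mark ACGTG or GCGTG, on the printed strand or as the reverse complement, with overlapping matches such as CACGTG joined into 1 stretch.

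Slc16a3 (chr11:120948817-120949066, plus strand): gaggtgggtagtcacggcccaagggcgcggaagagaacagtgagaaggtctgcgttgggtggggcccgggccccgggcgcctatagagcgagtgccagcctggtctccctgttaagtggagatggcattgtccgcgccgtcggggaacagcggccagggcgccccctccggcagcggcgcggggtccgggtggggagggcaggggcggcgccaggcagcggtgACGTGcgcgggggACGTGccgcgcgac

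Pdk1 (chr2:71872974-71873223, plus strand): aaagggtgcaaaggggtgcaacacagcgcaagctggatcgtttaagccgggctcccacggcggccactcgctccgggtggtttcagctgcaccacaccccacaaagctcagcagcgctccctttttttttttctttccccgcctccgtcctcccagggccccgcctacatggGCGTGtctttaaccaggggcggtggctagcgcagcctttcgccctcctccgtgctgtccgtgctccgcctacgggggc

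Bnip3 (chr7:138909507-138909756, minus strand): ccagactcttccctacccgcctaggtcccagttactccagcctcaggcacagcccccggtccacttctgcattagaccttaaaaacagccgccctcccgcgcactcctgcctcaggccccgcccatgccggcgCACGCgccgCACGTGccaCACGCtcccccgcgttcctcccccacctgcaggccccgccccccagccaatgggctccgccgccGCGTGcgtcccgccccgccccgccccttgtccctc

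Egln3 (chr12:54203875-54204124, minus strand): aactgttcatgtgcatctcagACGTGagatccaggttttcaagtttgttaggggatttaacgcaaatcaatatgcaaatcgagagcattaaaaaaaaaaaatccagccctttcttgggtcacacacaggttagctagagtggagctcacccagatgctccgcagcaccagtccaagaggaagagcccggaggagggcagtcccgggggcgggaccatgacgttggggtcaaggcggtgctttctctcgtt

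Ldha (chr7:46845554-46845803, plus strand): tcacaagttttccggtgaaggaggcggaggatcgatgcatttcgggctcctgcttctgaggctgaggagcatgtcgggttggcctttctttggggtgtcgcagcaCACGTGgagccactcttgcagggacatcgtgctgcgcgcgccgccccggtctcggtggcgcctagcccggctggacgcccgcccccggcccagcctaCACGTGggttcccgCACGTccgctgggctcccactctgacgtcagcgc

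Slc16a1 (chr3:104638414-104638663, plus strand): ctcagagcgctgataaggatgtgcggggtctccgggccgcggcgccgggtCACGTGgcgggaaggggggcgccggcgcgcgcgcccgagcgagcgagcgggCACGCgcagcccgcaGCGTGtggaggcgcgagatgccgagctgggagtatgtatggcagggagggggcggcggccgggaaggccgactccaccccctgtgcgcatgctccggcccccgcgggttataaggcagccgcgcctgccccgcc

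Of the 32 members with an entry, 25 (78.1%) had such a stretch in this window, against 56.2% of the first-listed windows of 11120 tested genes and 38.6% of all 32851 promoters in the table. Epas1, Ndrg1 and Slc2a3 had no entry. There were 3 or more stretches in 7 members (21.9%, against 8.89% of tested genes). Of the windows shown, Bnip3 had 4 stretches, Slc16a3 had 2, Pdk1 and Egln3 had 1 each, and Ldha and Slc16a1 had 3 each. Whether the number of stretches goes with the range of a gene was not tested. A stretch of these letters is a description and was not measured as a binding site.

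Reads counted on genes ranged from 18112100 in NSC Bmi1Over replicate 1 to 61353076 in NSC Bmi1Over replicate 2. Values per library are CPM, read counts relative to the library size after TMM normalisation (a trimmed mean that takes most genes as equal), and levels are compared between genes only as RPKM, which also divides by the length of the exons in kb. Bmi1 itself was at 133 and 124 CPM in NSC and at 119 and 113 CPM in the libraries labelled NSC Bmi1Over (log2 fold change −0.15, adjusted p = 0.463), so it was not raised and every direction between the groups rests on the labels. The share of unmapped reads lay between 11.2% and 17.6%, and that of the 10 most abundant genes between 5.23% and 10.1%. Both were ordered from NSC replicate 1 through NSC replicate 2 and NSC Bmi1Over replicate 1 to NSC Bmi1Over replicate 2, and their part in the results was not tested. Neural stem markers summed to between 4470 and 4561 CPM of counted reads in NSC and between 3378 and 3866 in NSC Bmi1Over, with all 8 (Nes and Sox2 among them) detected. These sums leave out TMM. With TMM they were 4154 and 4434 CPM in NSC and 3999 and 3626 CPM in NSC Bmi1Over. Without TMM, the endothelial, microglial, mesenchymal and erythroid markers reached at most 2.76 CPM each, and Cldn5, Hba-a1, Hba-a2, Hbb-bs and Hbb-bt had no counted read in any library.

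Together the 35 genes took 1.34% and 0.841% of the counted reads in NSC replicates 1 and 2, and 0.648% and 0.660% in NSC Bmi1Over replicates 1 and 2. The 15 glycolytic enzymes alone took 0.981%, 0.632%, 0.496% and 0.477% in the same order. NSC replicate 1 thus stood above the other 3 libraries, and its distance to NSC replicate 2 was larger than that between NSC replicate 2 and either NSC Bmi1Over library.

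Between the groups, none of the 35 genes passed the test in either direction (edgeR's quasi-likelihood F-test, with p adjusted by Benjamini and Hochberg over 15521 genes). Over all tested genes, 2.03% were called higher and 0.122% lower in NSC Bmi1Over. At an unadjusted p under 0.05 there were 21 members on the lower side (7.22% of all genes) and 1, Slc16a1, on the higher side (17%). DESeq2 called 11 members lower (1.23% of all genes) and 0 higher (8.36%). The log2 fold change was negative for 31 of the 35 (7982 of all 15521 genes), with a median of −0.64 against −0.01 over all genes. The positive values were those of Slc16a1, Pfkfb4, Car9 and Adm. The groups did not overlap for 21 members that were lower (30% of all genes) and 2 that were higher in NSC Bmi1Over (29%). With 2 cultures a group, an exact permutation test of a single gene cannot give a two-sided p below 0.333.

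**Figure D1:**
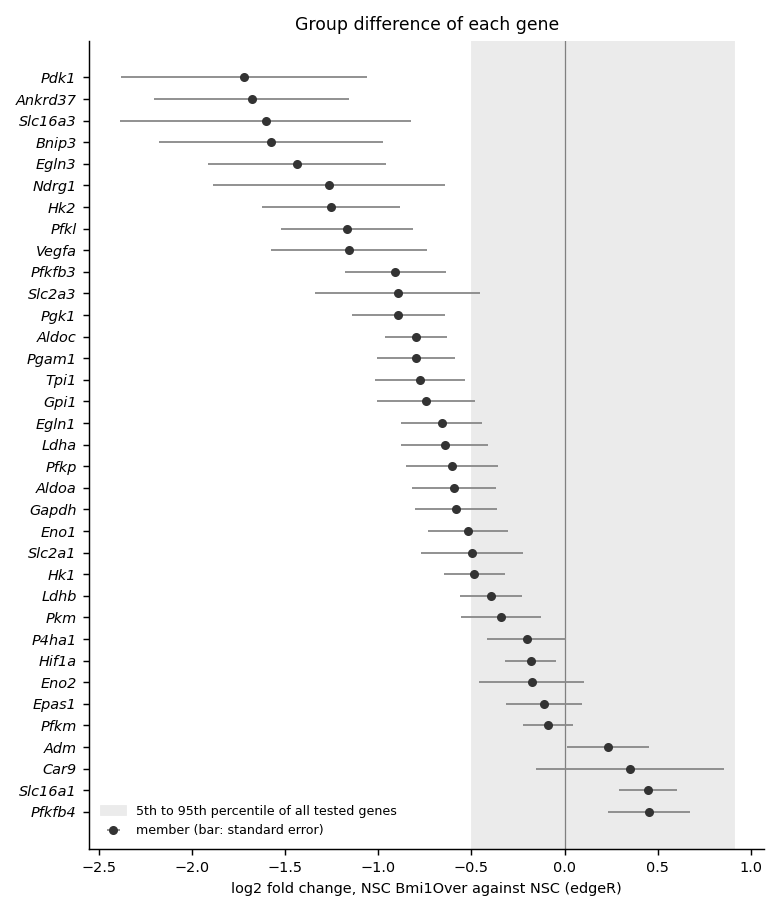
Log2 fold change of each gene between NSC Bmi1Over and NSC from edgeR (points, with the standard error as bars, n = 2 cultures a group), over a grey band from the 5th to the 95th percentile of all tested genes (−0.50 to 0.91). The 31 genes with a negative value reach down to −1.72 for Pdk1, and the longest bars belong to Slc16a3, Pdk1, Ndrg1 and Bnip3.

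The count of called members depended on the libraries and on the processing. With all 4 libraries kept, 24 members were called lower with no filter on low counts (1.62% of all genes) and 21 with the replicate number as a block (6.63%). Left out in turn, the number of members called lower was 1 without NSC replicate 1 (0.0252% of all genes tested in that fit), 22 without NSC replicate 2 (1.6%), 2 without NSC Bmi1Over replicate 1 (3.63%) and 7 without NSC Bmi1Over replicate 2 (0.296%). The lone library of a group is assumed to vary like the others. The gene called without NSC replicate 1 was Pdk1, those without NSC Bmi1Over replicate 1 were Aldoc and Ldhb, and those without NSC Bmi1Over replicate 2 were Hk2, Pfkp, Slc2a3, Slc16a3, Pdk1, Bnip3 and Egln3. Slc16a1 was called higher without NSC Bmi1Over replicate 1 (11.9% of all genes). The median log2 fold change was −0.28 without NSC replicate 1 and between −0.94 and −0.61 without each of the other 3. The difference between the groups is therefore described below beside the spread inside each group, gene by gene.

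Among the glycolytic enzymes, the most abundant per kb of exon were Gapdh, Eno1, Pkm, Pgk1 and Aldoa. Gapdh, the dehydrogenase at the middle of the pathway, was at 376 and 261 RPKM in NSC and at 221 and 205 RPKM in NSC Bmi1Over. In CPM it was at 1318 ± 336 (SD, n = 2) in NSC and 881 ± 45.9 (SD, n = 2) in NSC Bmi1Over, with a log2 fold change of −0.58 (standard error 0.22, adjusted p = 0.159) that was −0.30 without NSC replicate 1 and −0.83 without NSC replicate 2. All 4 libraries were apart, in the order NSC replicate 1, NSC replicate 2, NSC Bmi1Over replicate 1 and NSC Bmi1Over replicate 2, and the highest was 1.83-fold above the lowest. Gapdh is widely used as a reference transcript. Pkm, pyruvate kinase and the last step of the pathway, varied less, with 1708 and 1313 CPM in NSC and 1295 and 1089 CPM in NSC Bmi1Over (−0.34, standard error 0.22, adjusted p = 0.352, and −0.14 without NSC replicate 1).

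Hexokinase, which traps glucose in the cell, was counted as Hk1 and Hk2. Hk1 was at 168 and 128 CPM in NSC and at 97.1 and 114 CPM in NSC Bmi1Over. Hk2, the hypoxia-responsive form, was at 93.0 and 45.1 CPM in NSC and at 18.7 and 38.3 CPM in NSC Bmi1Over (log2 fold change −1.25, standard error 0.37, adjusted p = 0.096). The groups did not overlap for either gene. For Hk2, however, NSC replicate 2 lay closer to NSC Bmi1Over replicate 2 than to NSC replicate 1, which was 2.06-fold above it (95% interval 1.93 to 2.21, from the counts alone). With a culture left out, the log2 fold change of Hk2 ran from −0.64 (NSC replicate 1) to −1.89 (NSC Bmi1Over replicate 2). From the lowest to the highest library, Hk2 spanned 4.98-fold and Hk1 1.73-fold.

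Phosphofructokinase, the committed step, showed the same split between its subunits. The liver subunit Pfkl was at 212 and 100.3 CPM in NSC and at 49.4 and 88.8 CPM in NSC Bmi1Over (−1.17, standard error 0.35, adjusted p = 0.099). The muscle subunit Pfkm was at 131 and 112 CPM in NSC and at 118 and 111 CPM in NSC Bmi1Over (−0.09, adjusted p = 0.698). The platelet subunit Pfkp was at 56.0, 40.9, 23.1 and 39.9 CPM in NSC replicates 1 and 2 and NSC Bmi1Over replicates 1 and 2. Pfkl was high in NSC replicate 1 and low in NSC Bmi1Over replicate 1, and its replicate 2 libraries were close to each other, while Pfkm was within 1.19-fold in all 4. Pfkl was at −0.53 without NSC replicate 1 and at −1.66 without NSC Bmi1Over replicate 2.

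Aldolase C (Aldoc), a form of the fructose bisphosphate-cleaving enzyme that is typical of astrocytes in the brain, came closest to the threshold. It was at 113 and 82.8 CPM in NSC and at 52.4 and 59.9 CPM in NSC Bmi1Over (−0.80, standard error 0.17, adjusted p = 0.0508). The groups were apart, and each NSC library was above each NSC Bmi1Over library by more than the libraries of NSC Bmi1Over differed. Without NSC replicate 1 its log2 fold change was −0.56 (adjusted p = 0.314), and over all alternatives its adjusted p ranged from 3.66e-06 with no filter on low counts to that value. The astrocyte marker Aldh1l1, which is not among the 35, was also lower, at 122 and 94.2 CPM in NSC and 66.0 and 53.3 CPM in NSC Bmi1Over (−0.86, adjusted p = 0.044). The other markers did not all go with it: of the 5 astrocyte markers, 3 had a negative and 2 a positive log2 fold change. Slc1a3 was higher, at 1839 and 2228 CPM in NSC and 2533 and 3063 CPM in NSC Bmi1Over (0.46, adjusted p = 0.257). The 5 together summed to between 2130 and 2405 CPM of counted reads in NSC and between 2530 and 2913 in NSC Bmi1Over. Most of that sum was Slc1a3. Fewer cells of a type and less RNA per cell cannot be told apart in such bulk libraries. The widespread form Aldoa was at 786, 493, 426 and 421 CPM in NSC replicates 1 and 2 and NSC Bmi1Over replicates 1 and 2.

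The steps between aldolase and pyruvate kinase were highest in NSC replicate 1, with the exception of Eno2. Triose phosphate isomerase (Tpi1), which interconverts the products of aldolase, was at 540 and 306 CPM in NSC and at 249 and 245 CPM in NSC Bmi1Over. Phosphoglycerate kinase (Pgk1), which makes ATP, was at 714 and 424 CPM in NSC and at 273 and 340 CPM in NSC Bmi1Over (−0.89, standard error 0.25, adjusted p = 0.087), or −0.47 without NSC replicate 1. Phosphoglycerate mutase (Pgam1) was at 224, 138, 101 and 107 CPM in the same order, and the isomerase Gpi1, the step after hexokinase, at 969, 537, 417 and 483 CPM. For each of these 4 genes NSC replicate 1 was between 1.62-fold and 1.81-fold above NSC replicate 2, a step inside the wild-type group that exceeded, on the log2 scale, the step from NSC replicate 2 to either NSC Bmi1Over library. Eno1, the widespread enolase, was at 1842 and 1342 CPM in NSC and at 1093 and 1130 CPM in NSC Bmi1Over. Eno2, the neuronal enolase, was at 7.10 and 7.24 CPM in NSC and at 4.28 and 8.03 CPM in NSC Bmi1Over.

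Of the 15 glycolytic enzymes, all had a negative log2 fold change, with a median of −0.60, and 13 had groups that did not overlap (30% of all genes were apart and lower). The exceptions were Pfkm and Eno2. Reads that map to several places were not counted, and the processed pseudogenes of glycolytic enzymes are many. Of all the 50-base stretches of the exons, 53.9% were shared with another annotated gene for Pgk1, 37.0% for Bnip3, 36.2% for Pgam1, 26.0% for Eno1, 24.7% for Gapdh, 21.0% for Ldhb and 14.2% for Pkm, and under 10% for each of the other 28. The levels of those 7 genes are therefore uncertain, while their differences between libraries rest on the same counted stretches in each.

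**Figure D2:**
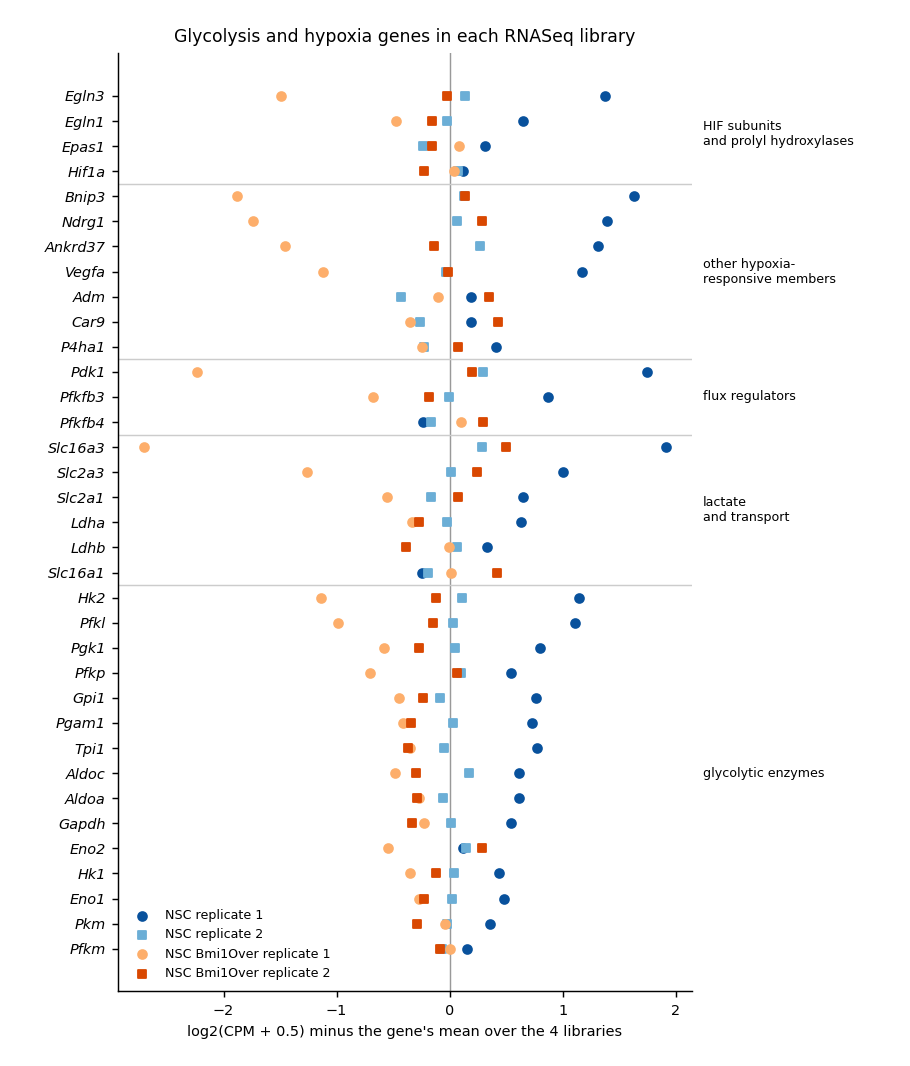
Level of each of the 35 genes in each library, as log2(CPM + 0.5) minus the mean of that gene over the 4 libraries, with circles for replicate 1, squares for replicate 2, blue for NSC and orange for NSC Bmi1Over. NSC replicate 1 is highest for 30 genes and NSC Bmi1Over replicate 1 lowest for 24, with the widest spread at Slc16a3, Pdk1 and Bnip3.

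Lactate dehydrogenase A (Ldha), which turns pyruvate into lactate, was at 1301 and 828 CPM in NSC and at 666 and 696 CPM in NSC Bmi1Over (−0.64, standard error 0.23, adjusted p = 0.144), with −0.28 left without NSC replicate 1. Ldhb, the subunit that favours the reverse reaction, was at 162, 135, 128 and 98.1 CPM in NSC replicates 1 and 2 and NSC Bmi1Over replicates 1 and 2. No overlap of the groups was seen for either gene, and both were highest in NSC replicate 1. Per kb of exon, Ldha was 3.81-fold and 2.92-fold above Ldhb in NSC and 2.47-fold and 3.37-fold above it in NSC Bmi1Over, so that the ratio overlapped between the groups.

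The glucose transporter GLUT1 (Slc2a1) was at 112 and 63.6 CPM in NSC and at 48.4 and 75.3 CPM in NSC Bmi1Over (−0.50, standard error 0.27, adjusted p = 0.294). GLUT3 (Slc2a3), a transporter of high affinity typical of neurons, was at 89.7 and 45.1 CPM in NSC and at 18.3 and 52.9 CPM in NSC Bmi1Over (−0.89, standard error 0.44, adjusted p = 0.254). For both, the groups overlapped, because NSC Bmi1Over replicate 2 was above NSC replicate 2. Slc2a3 was 2.89-fold higher in NSC Bmi1Over replicate 2 than in replicate 1 (95% interval 2.58 to 3.26). Slc2a1 had nearly no difference between the groups once NSC replicate 1 was left out (log2 fold change −0.037) and −0.86 without NSC Bmi1Over replicate 2. For Slc2a3 the same omissions gave −0.32 and −1.88.

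The monocarboxylate transporters gave the widest contrast between related genes. Slc16a3 (MCT4), the lactate exporter of highly glycolytic cells, was counted with 2046 and 524 reads in NSC and with 38 and 1378 reads in NSC Bmi1Over. These are 64.8 and 20.7 CPM in NSC and 2.17 and 24.1 CPM in NSC Bmi1Over, a 29.9-fold range (log2 fold change −1.61, standard error 0.78, adjusted p = 0.247). NSC replicate 1 was 3.13-fold above NSC replicate 2 (95% interval 2.84 to 3.45), NSC Bmi1Over replicate 2 was 11.1-fold above replicate 1 (95% interval 8.05 to 15.8), and the groups overlapped. Its log2 fold change was −0.59 without NSC replicate 1, −0.84 without NSC Bmi1Over replicate 1, −2.23 without NSC replicate 2 and −4.30 without NSC Bmi1Over replicate 2.

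Slc16a1 (MCT1), which carries lactate and pyruvate either way, was one of the few members with the opposite order. It was at 107 and 111 CPM in NSC and at 128 and 169 CPM in NSC Bmi1Over (0.45, standard error 0.16, adjusted p = 0.134). With a culture left out, its log2 fold change ran from 0.23 (NSC Bmi1Over replicate 2) to 0.63 (NSC Bmi1Over replicate 1). Its groups were apart, and the NSC libraries could not be told apart beyond counting error (0.963-fold, 95% interval 0.916 to 1.01). Per kb of exon, the ratio of Slc16a3 to Slc16a1 was 0.504 and 0.155 in NSC and 0.0142 and 0.118 in NSC Bmi1Over, a 35.6-fold range over 4 cultures.

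**Figure D3:**
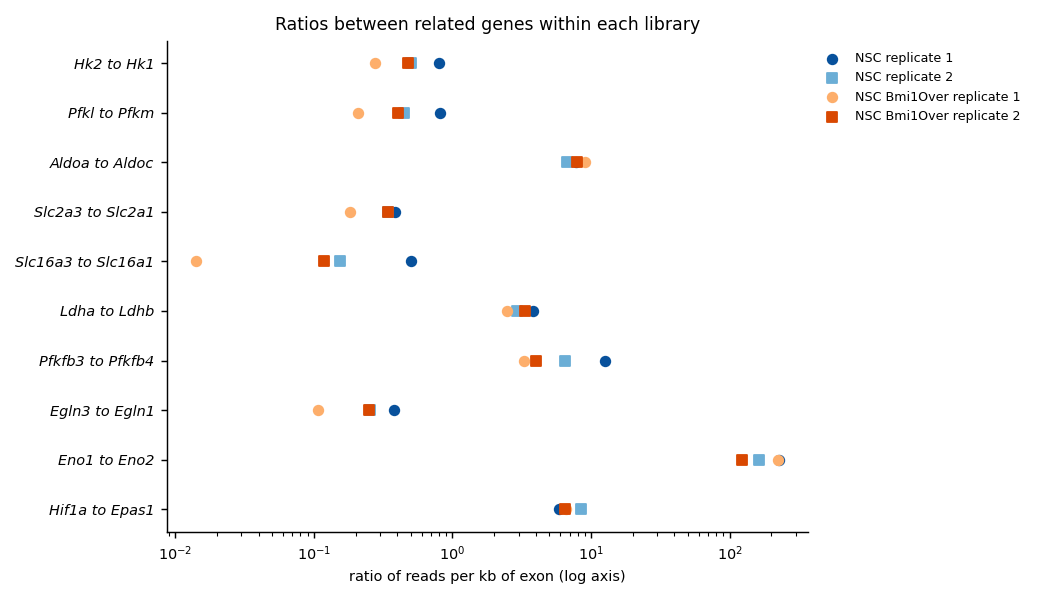
Ratio of reads per kb of exon between pairs of related genes in each library, on a log axis, with circles for replicate 1, squares for replicate 2, blue for NSC and orange for NSC Bmi1Over. In 7 of the 10 pairs NSC replicate 1 is highest and NSC Bmi1Over replicate 1 lowest, and the 3 exceptions are Aldoa to Aldoc, Eno1 to Eno2 and Hif1a to Epas1.

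Such ratios are formed within a library and do not depend on how the libraries are scaled. The pairs were made from the members themselves, so the order in them restates in part the values of single genes. How many other gene pairs have that order was not counted. The ratio of Hk2 to Hk1 was 0.794 and 0.504 in NSC and 0.275 and 0.481 in NSC Bmi1Over, and that of Pfkl to Pfkm was 0.811, 0.449, 0.210 and 0.402 in the same order. The replicate 2 libraries of both groups thus lay close to each other in both ratios, and the replicate 1 libraries on either side of them. The ratio of Aldoa to Aldoc stayed between 6.67 and 9.10 and was highest in NSC Bmi1Over replicate 1. That of Eno1 to Eno2 was 227 and 162 in NSC and 223 and 123 in NSC Bmi1Over, and that of Hif1a to Epas1 was 5.92, 8.50, 6.65 and 6.50 in the same order.

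Pdk1, the kinase that shuts pyruvate out of the mitochondrial cycle by inactivating pyruvate dehydrogenase, had the most negative log2 fold change of the 35 (−1.72, standard error 0.66, adjusted p = 0.164). With a culture left out it ranged from −0.83 without NSC replicate 1 to −3.53 without NSC Bmi1Over replicate 2. Ankrd37 was more negative without NSC replicate 1 (−1.01) or NSC Bmi1Over replicate 1 (−1.20), and Slc16a3 without NSC Bmi1Over replicate 2 (−4.30). With all cultures kept, Ankrd37 was also the more negative with DESeq2 (−1.81 against −1.76), the summed strand columns (−1.72 against −1.71) and thinning (−1.87 against −1.81). Pdk1 was at 113 and 41.1 CPM in NSC and at 6.68 and 38.3 CPM in NSC Bmi1Over, from 3570, 1038, 117 and 2187 reads. Its groups were apart only by the small step between NSC replicate 2 and NSC Bmi1Over replicate 2, whose ratio of 0.932 had a 95% counting interval of 0.865 to 1.00. Inside the groups the steps were 2.75-fold in NSC (2.57 to 2.95) and 5.73-fold in NSC Bmi1Over (4.75 to 6.96).

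Pfkfb3, which makes the activator fructose 2,6-bisphosphate for phosphofructokinase, was at 73.0 and 39.7 CPM in NSC and at 24.7 and 34.9 CPM in NSC Bmi1Over (−0.91, standard error 0.27, adjusted p = 0.097, with −0.41 without NSC replicate 1 and −1.29 without NSC replicate 2). Its relative Pfkfb4 was far lower, at 3.74 and 3.96 CPM in NSC and at 4.86 and 5.60 CPM in NSC Bmi1Over (0.45, adjusted p = 0.248). The groups were apart for both genes, in opposite directions. Per kb of exon, Pfkfb3 was 12.6-fold and 6.47-fold above Pfkfb4 in NSC and 3.28-fold and 4.02-fold above it in NSC Bmi1Over.

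The mRNAs of the HIF subunits lay within 1.5-fold. Hif1a was at 132 and 128 CPM in NSC and at 125 and 104 CPM in NSC Bmi1Over (−0.18, standard error 0.14, adjusted p = 0.432). With a culture left out, its log2 fold change ran from −0.32 (NSC Bmi1Over replicate 1) to −0.049 (NSC Bmi1Over replicate 2). Epas1 was at 21.1 and 14.2 CPM in NSC and at 17.9 and 15.2 CPM in NSC Bmi1Over (−0.11, standard error 0.20, adjusted p = 0.762). Neither followed the order of the libraries seen for Slc16a3 or Pdk1, and the highest library was 1.27-fold above the lowest for Hif1a and 1.48-fold for Epas1. The antisense gene Gm15283 overlaps 330 bases of the exons of Hif1a. Reads on both genes are ambiguous without strand and were not counted. The longest such overlaps among the members were in Pkm (767 bases), Pfkp (748) and Gpi1 (741). With the summed strand columns, Pfkp was at −0.44 in place of −0.60, Gpi1 at −0.78 in place of −0.74, and Pkm stayed at −0.34.

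The prolyl hydroxylases that mark HIF for destruction are themselves HIF-responsive. Egln1 (PHD2), the main oxygen sensor, was at 198 and 124 CPM in NSC and at 90.3 and 113 CPM in NSC Bmi1Over (−0.66, adjusted p = 0.119). Egln3 (PHD3), the more inducible form, was at 55.7 and 23.3 CPM in NSC and at 7.20 and 20.8 CPM in NSC Bmi1Over (−1.44, standard error 0.48, adjusted p = 0.120). Both had groups that were apart, but NSC replicate 1 was 2.39-fold above NSC replicate 2 for Egln3 (95% interval 2.18 to 2.63) and NSC Bmi1Over replicate 2 was 2.90-fold above replicate 1 (2.41 to 3.51). The log2 fold change of Egln3 ran from −0.69 without NSC replicate 1 to −2.46 without NSC Bmi1Over replicate 2, and that of Egln1 from −0.28 without NSC replicate 1 to −0.96 without NSC replicate 2. The ratio of Egln3 to Egln1 per kb was 0.380 and 0.254 in NSC and 0.108 and 0.249 in NSC Bmi1Over.

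Among the remaining hypoxia-responsive genes, Vegfa, the main angiogenic growth factor, had the highest mean level per kb in NSC, at 132 and 57.5 RPKM in NSC and 26.9 and 58.0 RPKM in NSC Bmi1Over. Its log2 fold change was −1.16 (standard error 0.42, adjusted p = 0.145), between −0.44 without NSC replicate 1 and −1.82 without NSC Bmi1Over replicate 2. NSC replicate 2 and NSC Bmi1Over replicate 2 were alike within counting error (1.01-fold, 95% interval 0.979 to 1.04), with NSC replicate 1 more than 2-fold above them and NSC Bmi1Over replicate 1 more than 2-fold below.

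Bnip3, a mitochondrial protein that promotes mitophagy, was at 54.2 and 18.8 CPM in NSC and at 4.28 and 18.9 CPM in NSC Bmi1Over (−1.57, standard error 0.60, adjusted p = 0.162). The replicate 2 libraries again differed by less than counting error (1.01-fold, 0.904 to 1.13). The antisense gene Gm45507 overlaps 504 bases of its exons. Ndrg1, a gene of stress and differentiation, was at 12.9, 4.83, 1.03 and 5.71 CPM in NSC replicates 1 and 2 and NSC Bmi1Over replicates 1 and 2 (−1.26, standard error 0.62, adjusted p = 0.251), with 556 bases of its exons under antisense genes. Both spanned over 12-fold between the libraries, and for both the groups overlapped. Their log2 fold changes moved with the culture left out, to −0.64 for Bnip3 and −0.42 for Ndrg1 without NSC replicate 1, and −3.09 and −3.11 without NSC Bmi1Over replicate 2.

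Ankrd37, a direct HIF target of low abundance, was at 6.81 and 3.05 CPM in NSC and at 0.571 and 2.17 CPM in NSC Bmi1Over (−1.68, standard error 0.52, adjusted p = 0.104), with the groups apart, and at −3.11 on the log2 scale without NSC Bmi1Over replicate 2. Antisense genes overlap 406 bases of its exons. P4ha1, a prolyl hydroxylase of collagen, was at 224, 144, 142 and 177 CPM in NSC replicates 1 and 2 and NSC Bmi1Over replicates 1 and 2, with overlapping groups. Adm, the vasodilator adrenomedullin, was at 51.3 and 33.3 CPM in NSC and at 41.8 and 57.4 CPM in NSC Bmi1Over (0.23, adjusted p = 0.528). Its highest library was NSC Bmi1Over replicate 2, and the groups overlapped. Car9, the surface carbonic anhydrase that is among the most oxygen-sensitive genes in tumours, stayed under 1 CPM in each library, between 0.343 and 0.945 CPM, where its log2 fold change of 0.35 had a standard error of 0.50.

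The recurrent order of the libraries was noticed after the values were seen. NSC replicate 1 was the highest and NSC Bmi1Over replicate 1 the lowest library for 22 of the 35 genes, against 9.28% of all tested genes. NSC replicate 1 was above NSC replicate 2 in 32 members (50.2% of all tested genes), NSC Bmi1Over replicate 2 was above replicate 1 in 27 (49.7%), and both held in 24, against 17.8% of all tested genes. Between the replicate 2 libraries of the groups, 21 members differed by under 0.25 on the log2 scale (49.2% of all tested genes), and NSC Bmi1Over replicate 2 was the higher one in 13 (49.5%). The larger of the differences inside a group exceeded the difference between the group means in 22 members, where 55.8% of all tested genes did so.

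Steps of more than 2-fold inside a group were counted only in the direction that most members showed, which was chosen after the values were seen. In that direction they were rare among all genes and common here. Steps the other way were not counted. NSC replicate 1 was more than 2-fold above NSC replicate 2 for 9 members (0.238% of all tested genes), which are 24.3% of the 37 genes with such a step and 25.7% of the members. NSC Bmi1Over replicate 2 was more than 2-fold above replicate 1 for 9 members (0.696% of all tested genes), which are 8.33% of the 108 genes with such a step. The 6 neuron markers summed to 1035 and 945 CPM of counted reads in NSC and to 914 and 774 in NSC Bmi1Over, and the 6 oligodendrocyte markers to 2455 and 2405 and to 2237 and 1916, so that both sums were lower in replicate 2 of NSC Bmi1Over than in replicate 1. Map2 made up most of the neuron sum, at 919 and 788 CPM (with TMM) in NSC Bmi1Over replicates 1 and 2. Of the 5 tested markers on each of the lists, 3 were higher in that replicate 2, Dcx and Pdgfra by more than 2-fold. Their part in the steps was not tested. There were 16 genes with both steps, and 8 of them were members: Ankrd37, Bnip3, Egln3, Hk2, Ndrg1, Pdk1, Slc16a3 and Vegfa. Of the other 8, Loxl2 and P4ha2, enzymes of the collagen matrix, belong to the list of further hypoxia-responsive genes. Slc16a3 ranked 5 among all genes for the step in NSC and 2 for the step in NSC Bmi1Over, and Pdk1 ranked 9 and 12.

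**Figure D4:**
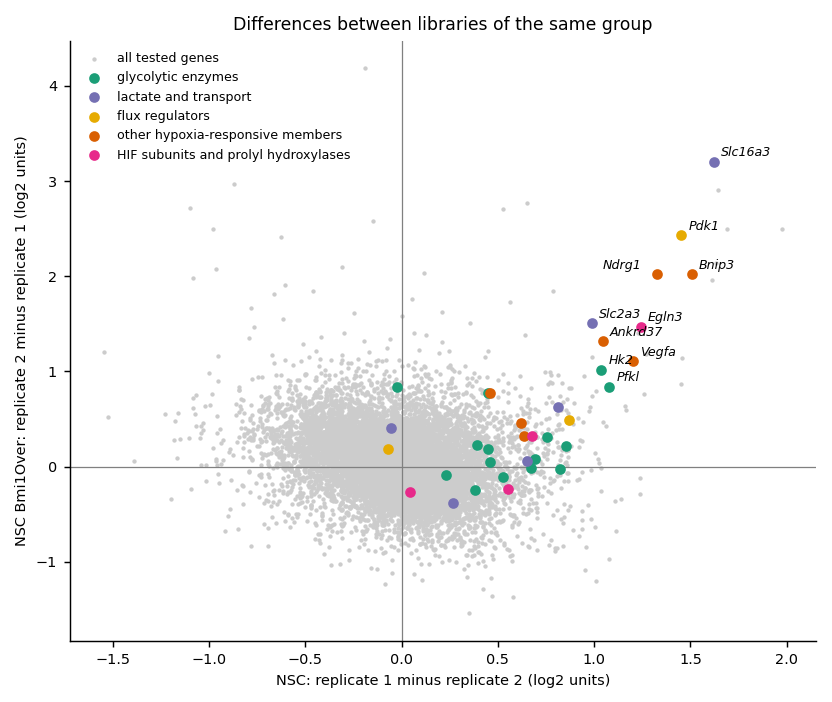
Difference between the NSC libraries (replicate 1 minus replicate 2, x axis) and between the NSC Bmi1Over libraries (replicate 2 minus replicate 1, y axis) in log2(CPM + 0.5), for all tested genes in grey and the 35 genes coloured by role. Slc16a3, of the lactate and transport role, lies farthest of the members to the upper right at 1.62 and 3.20, followed by Pdk1 at 1.45 and 2.43, while P4ha1 lies at 0.64 and 0.32 and Hif1a near the origin at 0.05 and −0.27.

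By role, the median step was 0.53 in NSC and 0.19 in NSC Bmi1Over on the log2 scale for the 15 glycolytic enzymes, of which Hk2, Pfkl, Pfkp and Eno2 had steps between 0.77 and 1.02 in NSC Bmi1Over. It was 0.73 and 0.52 for lactate and transport, 0.87 and 0.49 for the flux regulators, and 0.61 and 0.05 for the HIF subunits and prolyl hydroxylases. For the 7 further hypoxia-responsive members (Vegfa, Bnip3, Ankrd37, Car9, Ndrg1, Adm and P4ha1), the median step was 1.04 in NSC and 1.11 in NSC Bmi1Over. Over all tested genes both medians were 0.00. The order with NSC replicate 1 highest and NSC Bmi1Over replicate 1 lowest held for 9 of the 15 enzymes and 5 of those 7, and differences between the roles were not tested. The median range over the 4 libraries was 1.13 for all 35 genes, 2.29 for those 7 and 0.45 for all tested genes.

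Lists of related genes from the neighbouring pathways were read in the same fit. Of 19 tested genes for other glycolytic isozymes and transporters, edgeR called 1 higher (2.03% of all genes) and 0 lower (0.122%). There were 5 higher (17% of all genes) and 1 lower (7.22%) at an unadjusted p under 0.05. The median of this list was 0.35 on the log2 scale. The called gene was Slc2a10 (GLUT10), a facilitative sugar transporter, at 5.17 and 4.51 CPM in NSC and 19.0 and 16.7 CPM in NSC Bmi1Over (1.87, standard error 0.18, adjusted p = 0.00613). Of 31 genes for pyruvate entry and the TCA cycle, 0 were called in edgeR, 3 were lower at an unadjusted p under 0.05 (7.22% of all genes), and 30 had a negative value, with a median of −0.24. Their smallest p values were those of Sdhc, a subunit of succinate dehydrogenase (−0.42, adjusted p = 0.163), and Pdha1, a subunit of pyruvate dehydrogenase (−0.43, adjusted p = 0.167). The order with NSC replicate 1 highest and NSC Bmi1Over replicate 1 lowest held for 1 of these 31 genes, and for 5 of 22 genes of the pentose phosphate, serine and glycogen branches, 5 of 16 regulators of HIF, 6 of 14 stress response genes and 1 of 19 other isozymes and transporters, against 9.28% of all tested genes.

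Of 22 genes of the pentose phosphate, serine and glycogen branches, 19 had a negative value, with a median of −0.31. At an unadjusted p under 0.05, 9 were lower (7.22% of all genes) and 1 higher (17%). In edgeR 1 was called lower (0.122% of all genes), Psph, the last enzyme of serine synthesis. It was at 71.4 and 63.3 CPM in NSC and at 38.5 and 40.2 CPM in NSC Bmi1Over (−0.77, standard error 0.12, adjusted p = 0.0317). Unlike most members, Psph differed little inside either group. Of 16 regulators and partners of HIF, 0 were called in edgeR and 2 were lower at an unadjusted p under 0.05 (7.22% of all genes), namely Vhl, which targets hydroxylated HIF for degradation (−0.51, adjusted p = 0.0957), and the ubiquitin ligase Siah2 (−0.39, adjusted p = 0.137). The median of this list was −0.14.

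Of 36 tested genes on the list of other hypoxia-responsive genes, 0 were called in edgeR, and at an unadjusted p under 0.05 there were 20 lower (7.22% of all genes) and 3 higher (17%). The median was −0.53, and 21 of the 36 had NSC replicate 1 highest and NSC Bmi1Over replicate 1 lowest. Bhlhe40, a transcriptional repressor, was at 122 and 67.5 CPM in NSC and at 41.1 and 46.1 CPM in NSC Bmi1Over (−1.12, standard error 0.24, adjusted p = 0.0555). Tfrc, the transferrin receptor, had the opposite order, with 235 and 294 CPM in NSC and 424 and 478 CPM in NSC Bmi1Over (0.77, standard error 0.17, adjusted p = 0.0559). Of 14 stress response genes, 8 were lower at an unadjusted p under 0.05 (7.22% of all genes) and 2 higher (17%), with a median of −0.37. In edgeR 1 was called lower (0.122% of all genes), Chac1, an enzyme that degrades glutathione. It was at 42.4 and 36.2 CPM in NSC and 19.0 and 25.2 CPM in NSC Bmi1Over (−0.82, adjusted p = 0.0483).

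**Figure D5:**
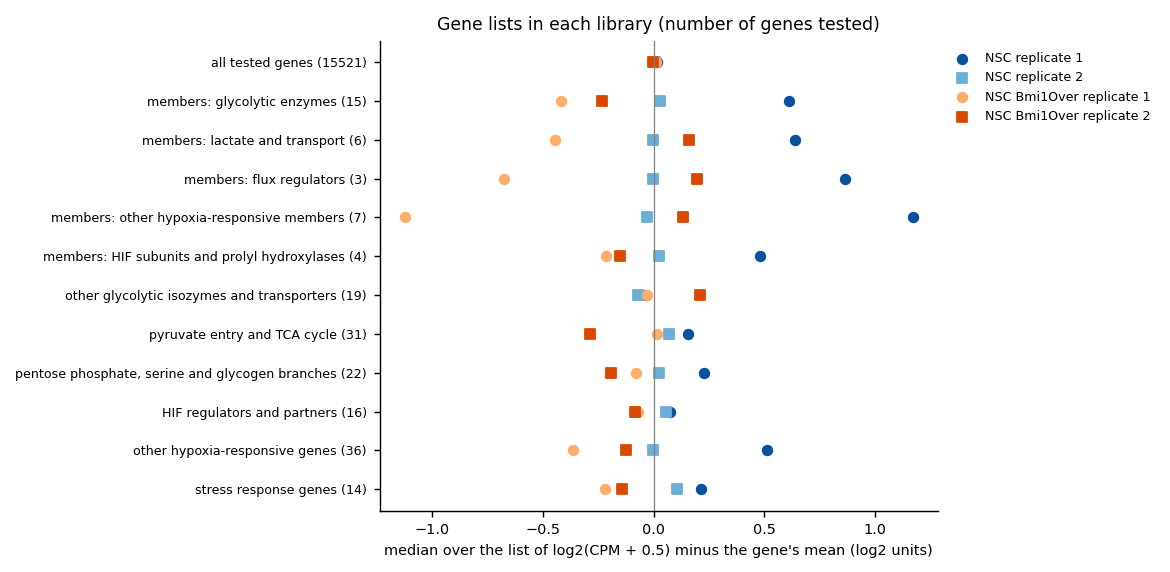
Median of each gene list in each library, in log2(CPM + 0.5) relative to the mean of each gene over the 4 libraries, with the number of genes tested in brackets, circles for replicate 1, squares for replicate 2, blue for NSC and orange for NSC Bmi1Over. The 7 further hypoxia-responsive members run from 1.17 in NSC replicate 1 to −1.12 in NSC Bmi1Over replicate 1, with the replicate 2 libraries at −0.03 and 0.13, and all tested genes stay within 0.02 of 0.

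In the ChIPSeq peak lists, an H3K27me3 peak within 5 kb of a transcription start site was listed for 3 of the 35 in NSC (8.87% of protein-coding genes) and for 0 in NSC Bmi1Over (4.4%), and the share in NSC was near that of all protein-coding genes. The 3 genes were Ndrg1 (2 peaks, chr15:66967659-66968159 and chr15:66970776-66970975), Epas1 (chr17:86754258-86754457) and Pgk1 (2 peaks, chrX:106189376-106189757 and chrX:106191966-106192235), in mm10. The peaks were between 200 and 501 bp long, with a fold enrichment between 3.63 and 3.95 and a −log10 q between 1.97 and 2.55, and 0 remained at a −log10 q of at least 3 or a length of at least 1000 bp. With 1 library a group the difference between the lists has no replicate error and was not tested, and the part of sequencing depth in it was not tested either. Of the 5 genes with the widest range between libraries on the log2(CPM + 0.5) scale, Ndrg1 had its peaks in NSC, and Slc16a3, Pdk1, Bnip3 and Egln3 had no listed promoter peak in either group.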

How the data were processed

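RNASeq libraries of 2 cultures of NSC and 2 of NSC Bmi1Over were made with the TruSeq RNA kit. After trimming with Trim Galore and alignment by STAR (mm10), the authors deposited unnormalised counts of uniquely mapped reads per gene. Unmapped, multi-mapped, ambiguous and intergenic reads stayed out of library sizes, which left between 65.9% and 72.2% of reads. ChIPSeq reads were aligned by the authors with Bowtie2 (version 2.3.4 in the submitters' processing notes), and MACS2 broad peaks were called on 1 library a group. The deposited lists hold a fold enrichment (a ratio) and the −log10 of the p-value and q-value, and the display score was not used. The lists do not give depth. The study gives read totals for the replicates of each group, but which replicate was kept is not stated.

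The unstranded counts of all genes kept by filterByExpr (minimum count 10) were scaled by TMM and fitted in R 4.3.3 with edgeR 4.0.16 (quasi-likelihood F-test, no covariate, Benjamini-Hochberg adjusted p under 0.05). TMM, this test and the threshold follow the study, which filtered genes with NOISeq instead. The standard error came from the F statistic. The fit was also run on simulated counts of independent genes. These held no shared step inside a group, so they do not show how the fit behaves with such steps. DESeq2 1.42.0 and Python 3.11.15 were also used. Log2 levels used a pseudocount of 0.5, RPKM the union of GENCODE vM21 exons, and 95% intervals between single libraries the exact Clopper-Pearson method, which covers counting error only.

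All 35 members are named, with full statistics for the 12 of largest absolute log2 fold change and for Hif1a, Epas1, Gapdh, Ldha, Pkm and Slc2a1. From each other pathway list, called genes are named, or the 2 of smallest p where 0 were called. Marker lists are given as sums and counts, and the markers named from them, beside the called one, were chosen after their values were seen. Genes named for their step inside a group and Aldoc were chosen after their values were seen. The members and lists were chosen with earlier results of these data known. Of the lists of neural stem, neuron, astrocyte, oligodendrocyte, microglial, endothelial, mesenchymal and erythroid markers, 1 gene was called, the astrocyte marker given in the results. Alternatives were other scalings, filters, columns and tests, a block for the replicate number, fits without each culture, and, for peaks, other windows and limits. Thinning was added after the data were seen.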

Additional observations from a re-analysis of the deposited data

How the results depend on the processing

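The count of members called lower, 0 in edgeR with TMM, was 11 with DESeq2 (1.23% of all genes), 6 with library size alone (1.23%), 24 with no filter on low counts (1.62%) and 1 after thinning (0.171%), and 0 with DESeq2's size factors, a minimum of 1 CPM, the summed strand columns or protein-coding genes only. With a culture left out it ranged from 1 member lower (0.0252% of all genes, without NSC replicate 1) to 22 (1.6%, without NSC replicate 2) and from 0 to 1 higher (1.08% to 11.9% of all genes). The median log2 fold change then ranged from −0.94 to −0.28. Library size alone moved the median of all genes to −0.17. The cause of these differences was not tested. With the replicate number as a block, 21 members were lower (6.63% of all genes) and 1 higher (15.7%). Same-numbered deviations correlated at 0.235, and with 2 pairs, and no source that ties the numbers to a litter, batch or day, whether they pair the cultures is undecided. Of 313 values of single members under the alternatives that kept all 4 cultures, 249 kept their direction and side of the threshold, 64 passed it and 0 changed direction. Of 140 values with a culture left out, 98 kept both, 33 passed it and 9 changed direction. They ranged from −0.20 to 0.028 for Pfkm (positive without NSC replicate 1), from −0.36 to 0.21 for Epas1 (positive without NSC replicate 1 or NSC Bmi1Over replicate 2), from −0.49 to 0.15 for P4ha1 (positive without NSC replicate 1), from −0.74 to 0.16 for Eno2 (positive without NSC Bmi1Over replicate 1), from −0.73 to 0.85 for Car9 and from −0.050 to 0.58 for Adm (both negative without NSC replicate 2 or NSC Bmi1Over replicate 2). At a −log10 q of at least 3 or a length of at least 1000 bp, 0 members had a promoter peak in NSC in place of 3.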
